A study of Homo sapiens with 96 samples.

Results

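The Krüppel-like factors (KLFs) measured here are 10 genes, KLF2, KLF3, KLF4, KLF5, KLF6, KLF7, KLF9, KLF10, KLF11 and KLF13, taken by their symbols from the 44659 entries of the count table. The cells were A375, a human melanoma line with mutant BRAF. They were kept for 18 h in DMSO or in MAPKi, which was vemurafenib (a BRAF inhibitor, 500 nM) with cobimetinib (a MEK inhibitor, 500 nM). Each pretreatment was then followed by 4 arms sampled at 0, 1, 3 and 5 h: vehicle, cycloheximide (CHX, 100 µg/ml, which blocks translation elongation), triptolide (T, 25 µM, which stops transcription), and TCHX, in which CHX was given 5 min before T. Every one of the 32 groups held 3 libraries, 96 in all, made from cytoplasmic RNA by 3′ end sequencing. All groups carry the same BRAF mutation, so cells without an active BRAF oncogene were not part of the comparison.

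KLF proteins bind GC-rich and CACCC DNA boxes through C-terminal C2H2 zinc fingers, and differ in the N-terminal part that recruits coactivators or corepressors. KLF2, KLF4, KLF5, KLF6 and KLF7 are mostly known as activators, KLF3 as a repressor that binds CtBP, and KLF9, KLF10, KLF11 and KLF13 as repressors that bind SIN3A. Several are early response genes with short-lived mRNAs, and growth factor signalling through ERK and ERK5 is a classical input to the family.

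Libraries held 2381351 to 12520154 counts, with a median of 7143396. KLF13 had 22 counts over all 96 libraries, was at 0 in 81 of them and never passed 4 counts in a library, so it did not pass the filter on low counts. Its neighbouring entries, which carry the symbol with a numbered suffix, held 0 and 31 counts and were not added to it. The remaining 9 KLF genes were tested. KLF2 (746 counts in all, 27 libraries at 0), KLF4 (1253 counts, 15 at 0) and KLF11 (1919 counts, 3 at 0) were sparse, and their values rest on few reads. Of 10 melanoma markers, 9 were tested. The summed level of the markers was 783 to 1118 CPM (read counts over the library size, scaled by TMM) in DMSO vehicle libraries and 2283 to 3884 CPM in MAPKi vehicle libraries. Most of this rise was DCT, at 36.4 to 63.4 CPM and 1328 to 2630 CPM. S100B went from 267 to 337 CPM to 169 to 271 CPM. With MAPKi 7 of the 9 were called higher and 2 lower by edgeR, where 69.1% of all genes were called. A set of 7 markers of keratinocytes, epithelium, leukocytes, endothelium and fibroblasts summed to 0.121 to 2.19 and to 1.64 to 4.39 CPM in the same libraries, with KRT5 and CDH5 at 0. In bulk RNA, a change in the number of cells that express a gene and a change of its RNA per cell cannot be told apart. Between the vehicle arm and the CHX, T and TCHX arms at 0 h, comparisons chosen after seeing the data, edgeR called 0 KLF genes, and 0%, 0% and 0% of all genes tested (441, 864 and 666 genes had an unadjusted p under 0.05, DESeq2 called 1, 1 and 0 genes, and edgeR without the filter on low counts called 3, 87 and 62 genes).

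The KLF loci are spread over the genome (GRCh38). KLF7 lies at chr2:207074137-207173851 and KLF11 at chr2:10043550-10054836, KLF3 at chr4:38664199-38701517, KLF9 at chr9:70384604-70414657, KLF4 at chr9:107484852-107489769, KLF6 at chr10:3775996-3785209, KLF5 at chr13:73054976-73077538, KLF13 at chr15:31326835-31435665 and KLF2 at chr19:16324826-16328685. The position of KLF10 is not given here. KLF3, KLF4, KLF7 and KLF11 each overlap a noncoding gene on the opposite strand, KLF3-AS1 and MYOSLID among them, and KLF7 also holds KLF7-IT1 on its own strand. The strand setting of the read counting is not given in the sources used here, so reads of these overlapping pairs could not be told apart.

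RefSeq start sites (GRCh38.p14, 250 bases before to 50 after) were at hand for 8 of the 10 genes, all but KLF3 and KLF10. They are shown for the 3 genes whose window holds a MEF2 box, a CArG box or a full cAMP response element, with that site in capitals. These are sites known to respond to signals, and MAPKi pretreatment is among the conditions compared. MAPK activity was not measured. In KLF2 (chr19:16324576-16324875, plus strand) the capitals mark a MEF2 box, the element through which ERK5 acts on this gene, at -120 to -111 from the start. In KLF7 (chr2:207167197-207167496, minus strand, 1 of 4 start sites) they mark a CArG box, the letters read by serum response factor, at -62 to -53. In KLF11 (chr2:10043971-10044270, plus strand, 1 of 2 start sites) they mark a full cAMP response element (TGACGTCA), at -176 to -169.
KLF2: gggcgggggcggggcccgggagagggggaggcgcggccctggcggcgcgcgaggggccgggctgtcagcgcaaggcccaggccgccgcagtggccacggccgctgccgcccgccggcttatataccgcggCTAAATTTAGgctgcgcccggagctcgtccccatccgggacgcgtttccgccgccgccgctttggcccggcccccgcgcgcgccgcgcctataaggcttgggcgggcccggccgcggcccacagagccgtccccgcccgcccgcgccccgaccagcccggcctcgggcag
KLF7: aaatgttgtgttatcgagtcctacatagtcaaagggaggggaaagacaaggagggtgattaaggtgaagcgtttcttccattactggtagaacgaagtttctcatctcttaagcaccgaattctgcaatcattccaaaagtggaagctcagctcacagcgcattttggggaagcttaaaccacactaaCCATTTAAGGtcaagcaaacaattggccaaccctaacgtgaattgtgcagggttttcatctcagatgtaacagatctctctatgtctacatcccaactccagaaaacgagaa
KLF11: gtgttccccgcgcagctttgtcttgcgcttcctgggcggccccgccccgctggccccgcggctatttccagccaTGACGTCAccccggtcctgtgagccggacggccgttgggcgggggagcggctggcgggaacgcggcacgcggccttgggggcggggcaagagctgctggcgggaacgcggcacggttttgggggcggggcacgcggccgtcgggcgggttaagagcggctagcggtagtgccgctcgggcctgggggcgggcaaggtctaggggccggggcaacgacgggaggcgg
Over all 35116 RefSeq start windows of this length and on both strands, the MEF2 box was in 0.572%, the CArG box in 1.29% and TGACGTCA in 1.85%, and each was in 1 of the 8 KLF genes. The E-box CACGTG was in 7.26% of windows and in 4 of 8 genes (KLF4, KLF6, KLF7, KLF11). CACCC was in 59.9% of windows and in 4 of 8 genes, and in KLF11 it overlaps the cAMP response element. The AP-1 letters TGACTCA or TGAGTCA were in 4.95% of windows and in 0 of 8 genes, and the ETS letters CCGGAAGT in 4.14% and in 0 of 8. The percentages are of single windows, while a KLF gene counts if any of its windows matches. KLF5, KLF7 and KLF11 have more than 1 window, so the percentages and the gene counts are not like for like. A match describes letters only, and binding was not measured.

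MAPKi against DMSO in the vehicle arm was taken as the mean over the 4 times, 12 libraries against 12. KLF3, KLF7 and KLF9 mRNA rose and KLF4, KLF10 and KLF6 mRNA fell, so 6 of the 9 KLF genes were called (edgeR quasi-likelihood test, Benjamini-Hochberg adjusted over all genes tested, adjusted p under 0.05), when 69.1% of all 14938 genes tested were. That share is near the background. The median log2 change was 0.16 over the 9 KLF genes and 0.06 over all genes.

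KLF4, a factor best known from pluripotency and epithelial differentiation, had 1.1, 2.81 and 4.31 CPM as the lowest, median and highest of the 12 DMSO vehicle libraries and 0, 0.414 and 1.46 CPM in MAPKi. Only the top of the MAPKi range reached into the DMSO range. The fitted log2 change was -2.40 ± 0.37 (SE), 5.26-fold lower (adjusted p = 3.06e-08). KLF10, a TGF-β-inducible repressor, went from 4.57, 9.74 and 21.5 CPM to 1.97, 5.69 and 9.14 CPM, with overlapping ranges. It fell by 0.91 ± 0.19 on the log2 scale (adjusted p = 2.46e-05). The KLF10 mean was lower in MAPKi cells at 0, 1 and 3 h but not at 5 h (6.38 CPM in DMSO, 7.77 CPM in MAPKi). KLF6, a widely expressed activator, fell by 0.29 ± 0.07 (adjusted p = 1.54e-04), with 62.5 to 117 CPM in DMSO and 46.6 to 135 CPM in MAPKi. The KLF6 mean was lower in MAPKi cells at 0, 3 and 5 h but not at 1 h (111 CPM in DMSO, 121 CPM in MAPKi).

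KLF9, a glucocorticoid-responsive repressor, had 73.2, 90.8 and 117 CPM in DMSO and 116, 188 and 263 CPM in MAPKi. The ranges meet only at their edge, and KLF9 was 1.99-fold higher (log2 0.99 ± 0.07, adjusted p = 7.26e-22). KLF3, the CtBP-binding repressor, had 31.5, 37.9 and 47.2 CPM against 63.6, 78.7 and 129 CPM, with no overlap between the 12 and 12 libraries, and was 2.15-fold higher (log2 1.1 ± 0.09, adjusted p = 6.99e-18). KLF7, a factor of neuronal differentiation, had 11.2, 18.5 and 31.8 CPM against 26.9, 38.1 and 52.9 CPM, overlapping at the edge, and was 2.10-fold higher (log2 1.07 ± 0.12, adjusted p = 5.80e-13).

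KLF2, KLF5 and KLF11 did not pass the test over the 4 times, with log2 changes of 0.16 ± 0.50, 0.22 ± 0.13 and -0.22 ± 0.28. KLF5, a proliferation-associated activator of epithelia, depended on the time compared. At 0 h it had 7.90, 5.44 and 5.89 CPM in DMSO and 11.5, 14.9 and 13.3 CPM in MAPKi, and the 0 h libraries alone gave a log2 change of 1.06 (adjusted p = 9.39e-04).

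The vehicle arm itself was not constant over its 5 h. Comparisons of vehicle at 1 and 3 h with 0 h were chosen after seeing the data. In MAPKi cells KLF6 had 46.6, 46.8 and 57.2 CPM at 0 h, 119, 108 and 135 CPM at 1 h, 78.3, 76.6 and 72.3 CPM at 3 h and 53.5, 58.8 and 57.5 CPM at 5 h. All 1 h libraries lay above all others, and the rise at 1 h was 2.40-fold (log2 1.27 ± 0.14, adjusted p = 1.79e-09). It was the only KLF gene of 9 called there, against 0.12% of all genes. In DMSO cells KLF6 had 77.3, 81.3 and 79.9 CPM at 0 h and 106, 111 and 117 CPM at 1 h, a log2 difference of 0.48 ± 0.14 that did not pass (adjusted p = 0.252).

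KLF5 moved most in DMSO cells. It had 7.90, 5.44 and 5.89 CPM at 0 h, 11.7, 12.6 and 16 CPM at 1 h, 40.0, 31.6 and 25.2 CPM at 3 h and 17.4, 20.5 and 11.6 CPM at 5 h. The 3 h libraries were above those of every other time. At 1 h edgeR called 0 of 9 KLF genes against 0.087% of all genes (2 at an unadjusted p under 0.05, KLF5 and KLF6; DESeq2 called KLF5). KLF5 was 5.09-fold higher at 3 h (log2 2.35 ± 0.27, adjusted p = 6.74e-10) and 2.56-fold higher at 5 h (log2 1.35 ± 0.28, adjusted p = 0.00239), and was the only KLF gene called at either time, against 1.14% and 1.07% of all genes. The 5 h call was lost without replicate 1 (adjusted p = 0.0565), without replicate 2 (0.177) and in a fit of only the groups compared (0.0539).

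In MAPKi cells 3 of 9 KLF genes were called at 3 h, against 1.79% of all genes, and 1 of 9 at 5 h, against 3.39%. KLF3 (0.63 ± 0.18, adjusted p = 0.0497) and KLF6 (0.59 ± 0.14, adjusted p = 0.00750) rose and KLF9 fell (-0.56 ± 0.14, adjusted p = 0.0106) at 3 h on the log2 scale. Leaving out a replicate ended the KLF3 call each time, the KLF6 call for replicates 1 and 2 and the KLF9 call for replicates 1 and 3. At 5 h KLF9 was 1.74-fold lower (log2 -0.80 ± 0.14, adjusted p = 4.35e-05), with 260, 197 and 263 CPM at 0 h and 148, 116 and 149 CPM at 5 h and no overlap between them.

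CHX asks what these mRNAs do when translation stops and transcription goes on. At 1 h edgeR called 0 of 9 KLF genes in DMSO cells, in MAPKi cells and in the difference between them (1, 2 and 1 at an unadjusted p under 0.05, and 0 by DESeq2 in each), against 0.0803%, 0.0803% and 0.0201% of all genes. KLF10 in MAPKi cells had 2.47, 2.63 and 6.24 CPM in vehicle and 12.7, 11.7 and 7.51 CPM in CHX at 1 h. These groups did not overlap, and the log2 difference of 1.39 ± 0.38 did not pass (adjusted p = 0.202), though it did without replicate 3 (0.0281).

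By 3 to 5 h of CHX, KLF mRNAs rose in both pretreatments. In DMSO cells 6 of 9 were higher and 0 lower, against 32.2% of all genes called in either direction. In MAPKi cells 8 of 9 were higher and KLF9 was lower, against 29.9%. The median log2 change was 1.41 and 1.44 over the 9 KLF genes and 0.00 and -0.01 over all genes, for DMSO and MAPKi.

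KLF10 showed the largest change among the 9 in both pretreatments. In DMSO cells it had 9.34, 14.3 and 21.5 CPM in vehicle and 85.9, 98.4 and 114 CPM in CHX at 3 h, and 5.64, 6.30 and 7.19 against 112, 119 and 228 CPM at 5 h. MAPKi cells had 8.21, 3.35 and 9.14 against 40.0, 61.2 and 50.8 CPM at 3 h, and 6.36, 8.92 and 8.05 against 96.5, 151 and 117 CPM at 5 h. Every CHX library lay above every vehicle library of its time. The change was 12.4-fold in DMSO (log2 3.64 ± 0.24, adjusted p = 4.71e-22) and 10.4-fold in MAPKi cells (log2 3.38 ± 0.24, adjusted p = 3.61e-20), and these did not differ detectably (difference -0.26 ± 0.33, adjusted p = 0.723).

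The other TGF-β-inducible repressor, KLF11, behaved in another way. In MAPKi cells at 5 h it had 1.45, 2.53 and 2.72 CPM in vehicle and 6.43, 9.80 and 9.24 CPM in CHX, without overlap. KLF11 rose 2.72-fold there (log2 1.44 ± 0.37, adjusted p = 0.00126) and gave -0.11 ± 0.40 in DMSO cells (adjusted p = 0.890).

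KLF6 at 5 h had 62.5, 72.0 and 79.4 CPM in vehicle and 185, 180 and 194 CPM in CHX in DMSO cells, and 53.5, 58.8 and 57.5 against 177, 222 and 182 CPM in MAPKi cells. The groups stood far apart in both, with log2 changes of 1.41 ± 0.10 (adjusted p = 2.07e-21) and 1.67 ± 0.10 (adjusted p = 6.59e-25). KLF4 at 5 h had 2.48, 1.1 and 2.80 CPM against 10.5 to 14.3 CPM in DMSO cells, and 0.578, 1.46 and 0.302 CPM against 1.99 to 3.44 CPM in MAPKi cells. It was 3.98-fold (adjusted p = 9.46e-05) and 3.46-fold higher with CHX (adjusted p = 0.00254), and every MAPKi CHX library at 5 h was below every DMSO one. KLF2, an endothelial and T-cell quiescence factor, was 3.33-fold (log2 1.74 ± 0.60, adjusted p = 0.0198) and 4.62-fold higher (log2 2.21 ± 0.56, adjusted p = 0.00134). The KLF2 call in DMSO cells was lost without any of the replicates (adjusted p = 0.0770, 0.0550 and 0.211), and in MAPKi cells without replicate 2 (0.189).

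**Figure D1:**
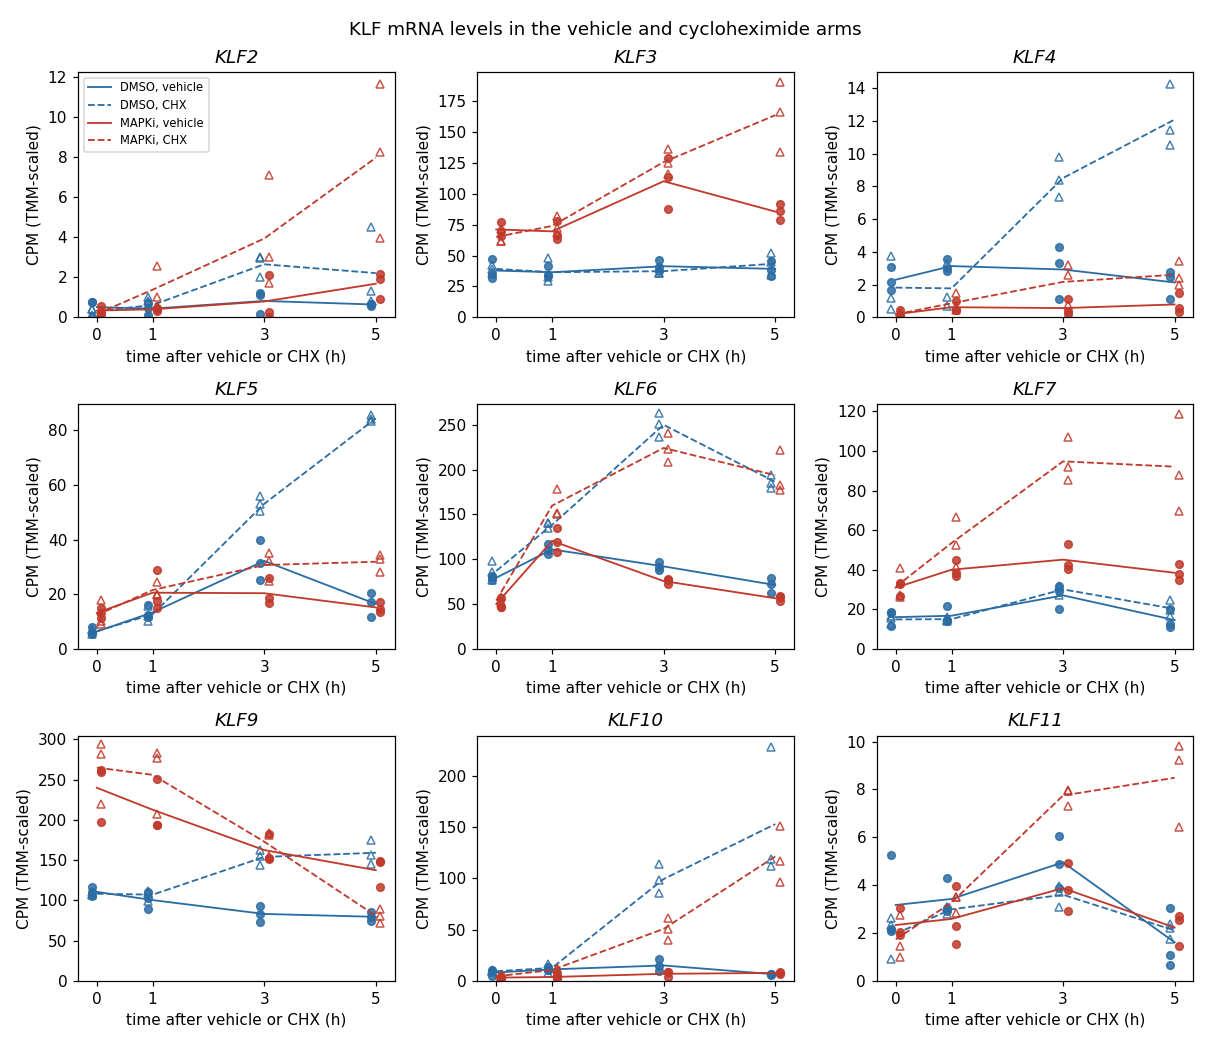
Levels of 9 KLF mRNAs in CPM (TMM-scaled, linear axes that start at 0) against hours after the addition of vehicle (filled circles, solid lines) or CHX (open triangles, dashed lines), in DMSO (blue) and MAPKi cells (red). Each point is a library, slightly shifted sideways, and lines join the means of 3 libraries; KLF10 climbs in both pretreatments with CHX, KLF5 reaches 83.4 to 85.8 CPM in DMSO cells and 28.4 to 34.5 CPM in MAPKi cells at 5 h, and the CHX lines of KLF9 run in opposite directions.

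The response to CHX differed between the pretreatments for 5 of 9 KLF genes, against 11% of all genes, in an interaction test that was chosen after seeing the data. The clearest was KLF9. Its CHX libraries had 175, 157 and 145 CPM at 5 h against 78.8, 85.7 and 74.3 CPM in vehicle in DMSO cells, and 72.6, 80.8 and 89.6 CPM against 148, 116 and 149 CPM in MAPKi cells. So the groups were apart in both pretreatments, with CHX above vehicle in DMSO cells and below it in MAPKi cells. At 3 h the MAPKi groups overlapped, at 183, 155 and 181 CPM with CHX and 153, 152 and 183 CPM in vehicle.

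Over 3 and 5 h KLF9 was 1.93-fold higher in DMSO cells (log2 0.95 ± 0.10, adjusted p = 9.70e-13) and 1.26-fold lower in MAPKi cells (log2 -0.34 ± 0.10, adjusted p = 0.00474, lost without replicate 1 at 0.113). The difference between these was -1.28 ± 0.14 on the log2 scale (adjusted p = 2.52e-11) and was called with each replicate left out.

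KLF5 responded more in DMSO cells. It had 17.4, 20.5 and 11.6 CPM in vehicle and 83.4, 84.0 and 85.8 CPM in CHX at 5 h there, and 17.2, 13.7 and 14.8 against 28.4, 33.0 and 34.5 CPM in MAPKi cells. The changes over 3 and 5 h were 2.93-fold and 1.79-fold, with a log2 difference of -0.71 ± 0.24 (adjusted p = 0.0378). KLF7 at 5 h had 12.4, 11.2 and 20.2 against 16.5, 24.6 and 19.7 CPM in DMSO cells, which overlap, and 34.8, 37.8 and 43.0 against 69.7, 119 and 88.1 CPM in MAPKi cells, which do not. Its log2 changes were 0.28 ± 0.17 (adjusted p = 0.216, and 0.0388 without replicate 3) and 1.16 ± 0.16 (adjusted p = 4.43e-09), a difference of 0.88 ± 0.23 (adjusted p = 0.00509).

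KLF3 gave a log2 change of 0.00 ± 0.14 in DMSO and 0.57 ± 0.13 in MAPKi cells (adjusted p = 2.12e-04), a difference of 0.56 ± 0.18 (adjusted p = 0.0323), and the KLF11 difference was 1.55 ± 0.54 (adjusted p = 0.0499). Leaving out a replicate ended the KLF5 and KLF11 differences for each replicate, those of KLF7 for replicates 2 and 3 and those of KLF3 for replicates 1 and 3. Only 1 to 2 of the 5 were left called by such fits.

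Triptolide shows what is left of an mRNA once its synthesis has stopped. Values here are scaled to 36 genes (the stable genes) with a CPM under T at least 1.1 times that in vehicle at 0 h. None of the 36 is a KLF gene. Values are given as a percentage of the mean vehicle level at 0 h. After 5 h of T, a comparison chosen after seeing the data, all 9 tested KLF genes were lower in DMSO and in MAPKi cells, against 51% and 56.8% of all genes called, nearly all of them lower. The median log2 change was -3.18 and -3.71 over the 9 KLF genes against -0.57 and -0.69 over all genes. The scaling bears on the background: with TMM, which sets the bulk of genes near 0, 1948 of 5190 called genes were higher in DMSO cells and 2899 of 6124 in MAPKi cells, where the stable genes gave 197 of 7571 and 196 of 8443. Each of the 9 kept its direction under every scaling tried, while TMM ended the calls of KLF2 in both pretreatments (adjusted p = 0.0627 and 0.0547) and of KLF4 in MAPKi cells (0.116). The KLF5 call in DMSO cells was lost without replicate 1 (0.0543).

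At 3 and 5 h of T, every library had a lower percentage of KLF6 mRNA left than of KLF3, KLF5, KLF7 or KLF9. This also held between libraries of the same pretreatment and time. At 1 h this was not so in DMSO cells, where KLF5 reached lower values. KLF10 was not always above KLF6. It was at 6.26% in replicate 3 of DMSO cells at 5 h, and at 0 in replicate 1 of MAPKi cells at 3 and 5 h. At 1 h of T KLF6 was at 73.0, 60.3 and 67.4% in DMSO cells and at 28.5, 48.2 and 40.6% in MAPKi cells. At 3 h it was at 10.5, 11.6 and 9.27% and at 5.02, 5.73 and 5.79%, and at 5 h at 5.63, 8.82 and 3.73% and at 2.72, 1.1 and 2.59%. At each of these times every MAPKi library was below every DMSO library. Over all genes with enough counts the median left at 5 h was 67.9% in DMSO and 62.1% in MAPKi cells.

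At 1 h KLF6 was the only one of 9 KLF genes called, in DMSO cells (log2 -0.58 ± 0.15, adjusted p = 0.0235) and in MAPKi cells (log2 -1.34 ± 0.16, adjusted p = 2.67e-09), against 0.909% and 1.64% of all genes. The DMSO call was lost with TMM (adjusted p = 0.129), with total counts (0.0597), in a fit of only the groups compared (0.0705) and without each replicate (0.0941 to 0.321). The difference between pretreatments called 0 of 9 KLF genes at 1 h (1 at an unadjusted p under 0.05, KLF6, at -0.76 ± 0.22 on the log2 scale; DESeq2 called 0), against 0.0135% of all genes.

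At 5 h the loss differed between the pretreatments for 3 of 9 KLF genes, KLF5, KLF6 and KLF9, against 3.1% of all genes. All of them lost more in MAPKi cells. KLF9 was at 15.8, 16.9 and 11.9% in DMSO cells and at 5.03, 5.20 and 6.30% in MAPKi cells, a difference of -1.44 ± 0.24 on the log2 scale (adjusted p = 2.22e-05) with no overlap. KLF6 differed by -1.55 ± 0.32 (adjusted p = 0.00134), which was lost without replicate 2 (-0.85, adjusted p = 0.380).

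KLF5 had the most unusual course. It was at 46.8, 37.3 and 86.8% at 1 h, at 95.6, 91.5 and 93.5% at 3 h and at 18.5, 34.6 and 55.1% at 5 h in DMSO cells, so the 3 h libraries were above those of 1 and 5 h. In MAPKi cells it was at 63.2, 88.9 and 69.1%, then at 16.2, 25.4 and 32.4%, then at 5.88, 16 and 8.70%. Its level at 0 h in DMSO cells, 5.44 to 7.90 CPM, was under that of MAPKi cells, and the vehicle arm of DMSO cells was the one in which KLF5 was 5.09-fold higher at 3 h. The difference at 5 h was -1.81 ± 0.46 (adjusted p = 0.0117), and was lost without replicate 1 (0.0553), without replicate 3 (0.394) and in a fit of only the groups compared (0.121).

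KLF3 at 5 h was at 24.6, 23.2 and 22.2% in DMSO cells and at 33.8, 17.1 and 23.9% in MAPKi cells, with overlap. KLF7, the least changed of the 9, was at 51.0, 29.8 and 40.2% and at 28.5, 44.3 and 26.0%. KLF10 was at 17.2, 9.16 and 6.26% and at 0, 14.8 and 13.6%, and KLF11 at 3.18, 3.40 and 24.4% and at 12.5, 0 and 6.16%. Differences between pretreatments were not called for these genes. KLF2 and KLF4 had 12 and 51 counts in DMSO vehicle at 0 h and 1 and 6 counts after 5 h of T. In MAPKi cells they had 7 and 4 counts before and 0 after, so no fold change is given. Leaving out a replicate ended the KLF4 call in MAPKi cells each time, the KLF2 call there for replicates 1 and 2 and the KLF2 call in DMSO cells for replicates 2 and 3.

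**Figure D2:**
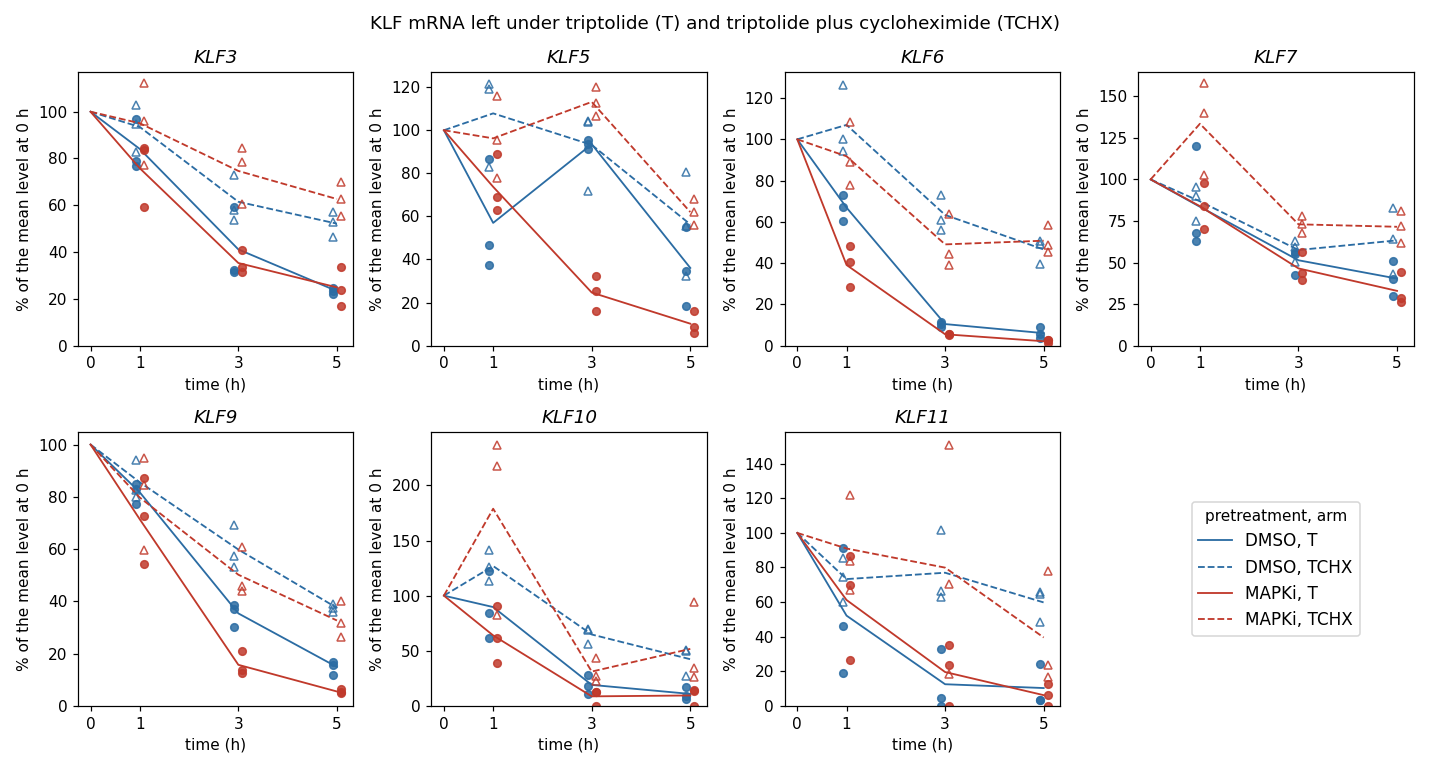
Percentage of the mean vehicle level at 0 h (stable-gene scaling, linear axes that start at 0) left after 1, 3 and 5 h of T (filled circles, solid lines) or TCHX (open triangles, dashed lines) in DMSO (blue) and MAPKi cells (red), for the 7 KLF genes with enough counts. Each point is a library and lines join the means of 3; KLF6 ends at 1.1 to 8.82% with T and at 39.6 to 58.6% with TCHX, and KLF5 in DMSO cells stays at 91.5 to 95.6% at 3 h of T.

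AU-rich pentamers in the 3′ UTR are known marks of short-lived mRNAs. The 3′ UTR of the canonical transcript held 6 ATTTA in 3543 bases in KLF6, 5 in 1652 in KLF5 and 8 in 3172 in KLF9. There were 9 in 4254 bases in KLF3, 3 in 1348 in KLF10 and 6 in 2329 in KLF11. KLF2 had 4 in 1654 bases and KLF4 had 2 in 899. KLF7, the least changed after T, held the most, 20, in the longest 3′ UTR of the set, 7076 bases. Stretches of 30 bases with 2 ATTTA each in KLF6 (chr10:3778792-3778821, minus strand) and KLF7 (chr2:207080004-207080033, minus strand) are shown, since these were the most and the least changed of KLF3, KLF5, KLF6, KLF7 and KLF9 after 5 h of T, with ATTTA in capitals. Each stretch was picked for holding the most ATTTA, so it does not stand for the whole 3′ UTR.
KLF6: tgtATTTAcaaatataacacaacaATTTAa
KLF7: tATTTAATTTAactctggtttatgacctga
A comparison of pentamer counts with all tested genes is void, because 11946 of 14938 had a matching canonical 3′ UTR, under the share set for such checks. Decay and pentamer number were not tested against each other over the 9 genes.

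Adding CHX before T shows how much of the loss goes on when ribosomes are held on the mRNA. Over 3 and 5 h, TCHX libraries held more KLF mRNA than T libraries for 6 of 9 genes in DMSO and 7 of 9 in MAPKi cells, and less for none (edgeR), against 29.1% and 42.2% of all genes called. The median log2 change was 1.79 and 2.13 over the 9 KLF genes and 0.23 and 0.34 over all genes. Of the called genes 4248 of 4315 were higher in DMSO and 6194 of 6269 in MAPKi cells, and 2366 of 3199 and 2919 of 4942 with TMM.

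KLF6 was again at the extreme. With TCHX it was at 50.9, 39.6 and 49.3% in DMSO and 45.4, 48.6 and 58.6% in MAPKi cells at 5 h, where T alone had left 3.73 to 8.82% and 1.1 to 2.72%. It was 6.82-fold higher than with T in DMSO (log2 2.77 ± 0.12, adjusted p = 1.62e-32) and 14.8-fold higher in MAPKi cells (log2 3.89 ± 0.16, adjusted p = 5.12e-36). Already at 1 h it was 1.60-fold (log2 0.68 ± 0.15, adjusted p = 0.0320) and 2.33-fold higher (log2 1.22 ± 0.16, adjusted p = 1.21e-07), the only KLF gene of 9 called in either pretreatment, against 0.0404% and 0.37% of all genes. A fit of only the groups compared ended both 1 h calls (adjusted p = 0.155 and 0.0568), and leaving out any replicate ended that in DMSO cells (0.254 to 1).

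KLF9 was at 37.6, 35.8 and 39.1% with TCHX in DMSO and at 31.6, 26.4 and 40.0% in MAPKi cells at 5 h, so the pretreatments overlapped with TCHX where they had not with T. KLF9 was 2.06-fold (adjusted p = 8.71e-12) and 4.37-fold higher with TCHX than with T (adjusted p = 6.49e-27). KLF5 at 3 h was at 104, 71.6 and 104% with TCHX in DMSO cells, around the 91.5 to 95.6% of T alone, and at 113, 107 and 120% against 16.2 to 32.4% in MAPKi cells. Its log2 changes over 3 and 5 h were 0.31 ± 0.22 (adjusted p = 0.309) and 2.38 ± 0.22 (adjusted p = 4.28e-16).

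The effect of CHX under T differed between the pretreatments for these 3 of 9 genes, against 7.18% of all genes: KLF5 by 2.07 ± 0.31 (adjusted p = 1.08e-06), KLF6 by 1.12 ± 0.21 (adjusted p = 1.19e-04) and KLF9 by 1.09 ± 0.17 on the log2 scale (adjusted p = 2.08e-06). The KLF6 difference was lost without replicate 2 (0.69, adjusted p = 0.147). This comparison shares its T libraries with the comparison of T at 5 h, so the 3 genes named in both are not separate evidence. TCHX minus T as a fraction of the 0 h level, the form of the study's decay index, was also taken. At 3 and 5 h KLF6 had means of 0.528 and 0.407 in DMSO cells and 0.430 and 0.4865 in MAPKi cells. KLF5 had -0.0174 and 0.155 in DMSO and 0.901 and 0.523 in MAPKi cells. KLF9 had 0.242 and 0.226 in DMSO and 0.349 and 0.271 in MAPKi cells. No test was run on these fractions.

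KLF10 was 3.55-fold and 4.57-fold higher with TCHX than with T, KLF11 5.98-fold and 4.56-fold, KLF3 1.82-fold and 2.31-fold, all called in both pretreatments. KLF7 was 1.83-fold higher in MAPKi cells (adjusted p = 4.65e-06), and gave 0.41 ± 0.18 on the log2 scale in DMSO cells (adjusted p = 0.0756). KLF4 was 3.45-fold higher in DMSO cells (adjusted p = 0.00758), which was lost without replicate 2 (0.0567). KLF2 in both pretreatments and KLF4 in MAPKi cells had at least 1 group with 0 counts, and no fold change is given for them. The KLF2 comparison in DMSO cells passed only without replicate 3 (adjusted p = 0.0448).

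TCHX against CHX asks how much of the level seen with CHX needs transcription. At 1 h KLF6 was the only KLF gene of 9 called, 1.61-fold lower in DMSO cells (log2 -0.69 ± 0.14, adjusted p = 0.00178) and 3.49-fold lower in MAPKi cells (log2 -1.80 ± 0.15, adjusted p = 7.21e-16), against 0.855% and 0.882% of all genes. The DMSO call was lost without replicate 1 (0.219) and without replicate 2 (0.136).

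Over 3 and 5 h, chosen after seeing the data, 8 of 9 KLF genes were lower in DMSO cells and 9 of 9 in MAPKi cells, against 46.4% and 57.7% of all genes. The median log2 change was -2.47 and -3.03 over the 9 KLF genes and -0.35 and -0.52 over all genes. Here too the scaling bears on the background, with 479 of 6898 and 254 of 8567 called genes higher, and 3389 of 6836 and 3638 of 6798 with TMM.

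KLF10, which rose most with CHX, was 31.8-fold lower with TCHX than with CHX in DMSO cells (log2 -4.99 ± 0.26, adjusted p = 1.57e-29) and 70.9-fold lower in MAPKi cells (log2 -6.15 ± 0.30, adjusted p = 3.84e-31). In CPM at 5 h it had 4.76, 5.19 and 2.74 with TCHX against 112, 119 and 228 with CHX in DMSO cells. KLF5 was 15.7-fold and 3.49-fold lower, with 6.13, 2.67 and 4.50 CPM against 83.4 to 85.8 CPM at 5 h in DMSO cells. These groups were far apart.

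KLF6 was 5.54-fold and 10.3-fold lower, KLF7 2.79-fold and 5.13-fold, and KLF3 2.08-fold and 3.67-fold. KLF2 and KLF4 were 16.3-fold and 9.49-fold lower in DMSO cells, and in MAPKi cells each had a TCHX group with 0 counts, so no fold change is given. KLF11 did not pass in DMSO cells (log2 -0.49 ± 0.39, adjusted p = 0.324), where its change with CHX had not passed either. It was 8.17-fold lower in MAPKi cells (adjusted p = 6.68e-10). KLF9 in MAPKi cells was 1.51-fold lower (log2 -0.60 ± 0.11, adjusted p = 2.25e-06), and with TMM it gave -0.03 (adjusted p = 0.808), so this call rests on the scaling. In CPM it had 93.7, 78.8 and 112 with TCHX and 72.6, 80.8 and 89.6 with CHX at 5 h, which overlap.

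**Figure D3:**
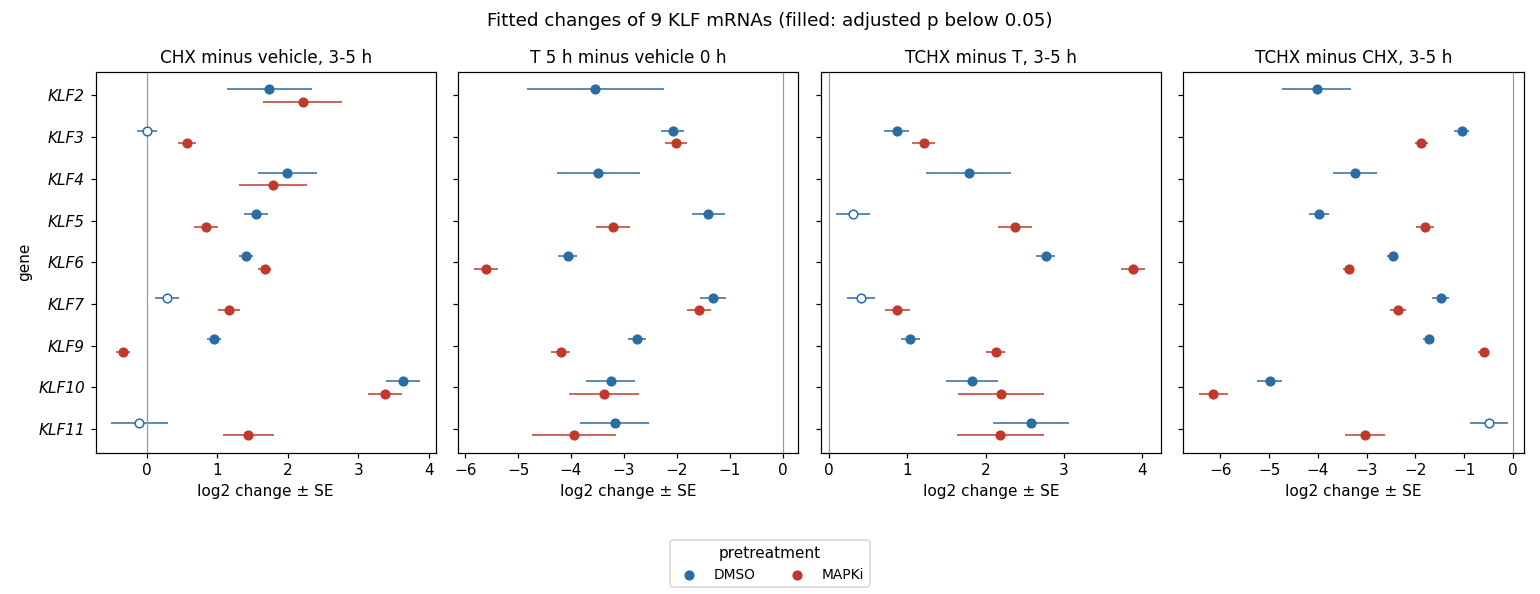
Fitted log2 changes ± SE of 9 KLF mRNAs in DMSO (blue) and MAPKi cells (red) for CHX against vehicle, T at 5 h against vehicle at 0 h, TCHX against T and TCHX against CHX, with filled symbols for an adjusted p under 0.05 and none drawn where a group was at 0 counts. CHX changes lie mostly to the right of 0 with KLF10 farthest at 3.64 and 3.38, T and TCHX-against-CHX changes lie to the left, and KLF9 with CHX is the gene whose called changes lie on opposite sides of 0.

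Other members of the KLF and SP families were read from a list of 17, of which 9 were tested. KLF12, KLF15 and SP8 rose with MAPKi and KLF16 and SP3 fell, 5 of 9, a smaller share than the 69.1% of all genes. KLF15, a glucocorticoid target like KLF9, had 0.469 to 2.48 CPM in DMSO and 2.40 to 6.8 CPM in MAPKi vehicle libraries (log2 1.57), and rose with CHX in both pretreatments (2.54 and 1.90). It was the only one of these called higher with CHX in both, with 3 of 9 called in DMSO and 1 of 9 in MAPKi cells, against 32.2% and 29.9% of all genes. KLF16, a regulator of dopamine receptor genes, fell by 1.45 on the log2 scale with MAPKi, from 28.2 to 40.5 CPM to 8.40 to 16.3 CPM without overlap. After 5 h of T, 8 of 9 fell in DMSO and 6 of 9 in MAPKi cells, against 51% and 56.8% of all genes called, with a median log2 change of -1.29 and -1.27 against -0.57 and -0.69. SP1, the founding member of the SP branch, fell by 1.03 and 1.22. With TCHX against T, 6 and 7 of 9 were higher, against 29.1% and 42.2% of all genes called. SP7 was at 0 in all 96 libraries, and KLF1, KLF8, KLF17, KLF18, SP5, SP6 and SP9 had 4 to 64 counts in all.

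Of 10 regulators and partners 9 were tested, and 2 rose and 2 fell with MAPKi, 4 of 9 where 69.1% of all genes were called. MEF2C, a transcription factor through which ERK5 acts on KLF2 and KLF4, had 47.9 to 99.9 CPM in DMSO and 255 to 377 CPM in MAPKi vehicle libraries (log2 2.25), and MAP2K5, the kinase of ERK5, rose by 0.62. The corepressors CTBP2 and CTBP1, which KLF3 recruits, fell by 0.80 and 0.22. With CHX, 4 of 9 were called in each pretreatment against 32.2% and 29.9% of all genes, WWP1 (a ubiquitin ligase of KLF5) and CTBP1 falling in both. After 5 h of T, 7 of 9 fell in each against 51% and 56.8%, SIN3A (the corepressor of KLF9, KLF10 and KLF11) most at -1.67 and -1.95. With TCHX against T, 4 and 5 of 9 were higher against 29.1% and 42.2%, again with SIN3A at the largest change among them, 0.62 and 0.99.

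A list of 10 genes known to be bound and regulated by KLF proteins had 8 tested, and all 8 were called with MAPKi, 2 higher and 6 lower, against 69.1% of all genes. CDKN1A, the cell cycle inhibitor that KLF4 and KLF6 activate, rose by 1.22 on the log2 scale, from 37.3 to 52.6 CPM to 82.3 to 116 CPM. CCND1 (cyclin D1) fell by 4.94, from 346 to 476 CPM to 9.22 to 18.1 CPM. With CHX, CDKN1A was higher in DMSO (log2 0.74) and lower in MAPKi cells (log2 -1.17), a difference of -1.91, and so was called with opposite signs in the same pretreatments as KLF9. SMAD7, an inhibitor of TGF-β signalling that KLF10 is known to repress, rose with CHX by 1.25 and 2.00. CHX called 5 of 8 in DMSO and 6 of 8 in MAPKi cells, against 32.2% and 29.9% of all genes. T at 5 h called 5 of 8 lower in each, near the 51% and 56.8% of all genes, and TCHX against T called 3 and 5 of 8 higher, against 29.1% and 42.2%. THBD and S1PR1, endothelial targets of KLF2, had 0 and 20 counts in all. Since KLF protein was not measured, no link between a member and these genes follows from the counts.

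The genes most like each member were taken by Pearson's r of log2 CPM over the 32 group means, as a description, since all points come from the same 96 libraries and share the treatments. KLF6 was closest to ZFP36L1 (r = 0.963), an adaptor that directs decay of AU-rich mRNAs, to ZNF24 (0.963) and to RHOB (0.955). KLF9 was closest to BTG1 (0.916), an antiproliferative factor tied to deadenylation, to ZKSCAN1 (0.906) and to ZFAND5 (0.900). KLF10 was closest to THUMPD2 (0.955), ZNF267 (0.954) and TYW5 (0.949), and KLF5 to PDP1 (0.924), ABL2 (0.914) and JUND (0.912). KLF2 had NUAK2 (0.891), the AP-1 subunit JUNB (0.886) and ZNF14 (0.881), and KLF4 had SSH1 (0.935), FOXC2 (0.935) and MAFF (0.930).

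KLF3 had HOXC6 (0.969), SMAD6 (0.957) and DSTYK (0.955), and KLF7 had SMAD6 (0.944), the clock repressor NR1D2 (0.921) and DEPP1 (0.920). KLF11 had ZNF648 (0.883), PDIK1L (0.877) and the ETS factor ELF2 (0.876). Among the KLF genes themselves KLF3 and KLF7 were the closest pair (r = 0.908), followed by KLF6 and KLF11 (0.871), KLF2 and KLF10 (0.858), KLF4 and KLF10 (0.856) and KLF6 and KLF10 (0.856). KLF3 and KLF4 were the least alike (-0.095).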

How the data were processed

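A375 cells were sampled by QuantSeq 3′ end sequencing of cytoplasmic RNA from 500 ng of input, with 4 plates prepared alike and harvested at the 4 times. The deposited table holds raw counts per gene; per the labels and the study's methods the authors trimmed reads with fastp 0.20.1, aligned them to GRCh38.p13 with HISAT2 2.2.1 and counted with HTSeq 0.13.5. The strand setting is not given in the sources used here, and counts without molecular identifiers may include PCR copies. Libraries of a group are numbered 1 to 3, and since nothing says that they came from separate cultures, p-values measure only the spread between these samples.

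Counts were tested with edgeR 4.0.16 (quasi-likelihood, two-sided) in R 4.3.3, in 1 fit of all 96 libraries with a mean per group, after filterByExpr, with Benjamini-Hochberg adjustment over all genes. Vehicle and CHX comparisons used TMM scaling (14938 genes). Comparisons with T used DESeq2 1.42.0 size factors over 36 stable genes (14853 genes tested). The stable genes had a CPM over 0.2 in vehicle at 0 h and at least 1.1 times this initial CPM under T at 3 and 5 h. Their initial CPM was also over 10% of the later, and each rule held in all replicates. The stable genes were thus chosen from these T libraries. Percentages left are stable-gene normalized counts over the mean vehicle count at 0 h, for KLF genes whose 3 libraries there averaged more than 3 counts; medians over all genes took those that averaged at least 20.

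The members, all 10 of which are named, the other lists and the tests were chosen with earlier results of these data known; 13 of 31 comparisons were added after seeing the data. Likeness used log2 CPM with a prior count of 1 and the 3 closest genes per member. On simulated data for CHX at 1 h in DMSO cells, 165 of 200 genes changed 2-fold were recovered with 7 false calls among 14938 genes. The 200 were drawn from genes above a set expected count, so this rate does not cover sparse genes such as KLF2 and KLF4. It was run with TMM scaling only. Promoter sequences are RefSeq windows, and 3′ UTRs come from the GENCODE annotation of GRCh38. Alternatives were the DESeq2 test, other scalings, no filter on low counts, a replicate block, leaving out each replicate and fitting only the groups compared.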

Additional observations from a re-analysis of the deposited data

Results flagged for a closer look

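For 6 KLF genes (KLF3, KLF5, KLF6, KLF7, KLF9 and KLF11) the effect of a treatment differed between DMSO and MAPKi cells by an interaction test (edgeR, adjusted over all genes; values are MAPKi minus DMSO on the log2 scale).

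The CHX response over 3 and 5 h differed for KLF9 by -1.28 ± 0.14 (adjusted p = 2.52e-11), for KLF7 by 0.88 ± 0.23 (0.00509), for KLF3 by 0.56 ± 0.18 (0.0323), for KLF5 by -0.71 ± 0.24 (0.0378) and for KLF11 by 1.55 ± 0.54 (0.0499). These were 5 of 9 KLF genes, against 11% of all genes. Only the KLF9 difference was called with each replicate left out.

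The loss after 5 h of T differed for KLF9 by -1.44 ± 0.24 (2.22e-05), for KLF6 by -1.55 ± 0.32 (0.00134) and for KLF5 by -1.81 ± 0.46 (0.0117), all toward less mRNA left in MAPKi cells. These were 3 of 9 KLF genes, against 3.1% of all genes. Leaving out a replicate could end the KLF6 and KLF5 calls.

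The effect of CHX under T over 3 and 5 h differed for KLF5 by 2.07 ± 0.31 (1.08e-06), for KLF9 by 1.09 ± 0.17 (2.08e-06) and for KLF6 by 1.12 ± 0.21 (1.19e-04), all toward more in MAPKi cells. These were 3 of 9 KLF genes, against 7.18% of all genes, and the KLF6 call was lost without replicate 2. As fractions of the 0 h level, KLF6 had 0.528 and 0.407 in DMSO and 0.430 and 0.4865 in MAPKi cells at 3 and 5 h. The last 2 sets share the T libraries at 5 h.

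Over 18 h of MAPKi the starting levels of these genes were not equal: KLF9 began at 105 to 117 CPM in DMSO and 197 to 263 CPM in MAPKi vehicle, KLF6 at 77.3 to 81.3 and 46.6 to 57.2 CPM, and KLF5 at 5.44 to 7.90 and 11.5 to 14.9 CPM. The part of the starting level in the differences was not tested.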

How the results depend on the processing

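No KLF change reversed under any alternative: of 1010 repeated values for single genes, 923 kept their side of the threshold, 63 were no longer called and 24 were newly called, and 242 of 282 counts of called KLF genes stayed within 1.5 times. Unless a value shows it, the cause of a change was not tested.

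Counts of called KLF genes that moved were these. Without the filter on low counts, 1 for CHX at 1 h in MAPKi cells and for its interaction (from 0), 2 for vehicle at 5 h in DMSO and in MAPKi cells (from 1), 1 for vehicle at 1 h in DMSO cells (from 0), 3 for vehicle at 3 h in DMSO cells (from 1), and 2 for T, TCHX against T and TCHX against CHX at 1 h in MAPKi cells (from 1). The DESeq2 test gave 2 for vehicle at 5 h in MAPKi cells and 1 for vehicle at 1 h in DMSO cells. A fit of only the groups compared, with fewer samples, gave 0 for vehicle at 5 h in DMSO and at 3 h in MAPKi cells, 0 for T at 1 h and for TCHX against T at 1 h in DMSO cells, 0 for TCHX against T at 1 h in MAPKi cells, and 2 for vehicle at 5 h in MAPKi cells. TMM and total counts each gave 0 for T at 1 h in DMSO cells, and T at 1 h against the T arm at 0 h gave 3 in MAPKi cells. Leaving out a replicate gave 0 to 1 for CHX at 1 h in MAPKi cells, 1 to 2 for the CHX interaction over 3 and 5 h (from 5), 0 to 1 for vehicle at 5 h in DMSO and at 3 h in MAPKi cells (from 3), 0 to 0 for T at 1 h and for TCHX against T at 1 h in DMSO cells, and 0 to 1 for TCHX against CHX at 1 h in DMSO cells.

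Libraries with the same replicate number share a prefix in their column names, and the labels do not say what it stands for. Deviations of libraries with the same number correlated at -0.379 to 0.399 (median 0.0228, 361 of 1488 pairs over 0.1; median -0.0109 for different numbers), and 63 of 96 libraries were closest to their own of the 3 numbers, a hint from the data, not from the design, that such libraries vary together. A replicate block gave 2 called KLF genes in place of 1 for vehicle at 5 h in DMSO cells (KLF9), vehicle at 5 h in MAPKi cells (KLF10) and T at 1 h in MAPKi cells (KLF9), and changed no other call.

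Over all genes, these called counts moved by over 1.5 times, and every other one stayed within that. Without the filter, CHX at 1 h gave 38 in DMSO, 190 in MAPKi cells and 232 for the interaction (from 12, 12 and 3), vehicle 34 and 38 at 1 h (from 13 and 18) and 410 at 5 h in DMSO cells (from 160), the CHX, T and TCHX arms at 0 h 3, 87 and 62 (from 0), the T interaction at 1 h 17 (from 2) and TCHX against T at 1 h 24 and 119 (from 6 and 55). DESeq2 gave 34 for CHX at 1 h in MAPKi cells, 24 and 36 for vehicle at 1 h and 14 and 91 for TCHX against T at 1 h. For T at 1 h (135 and 243), TMM gave 88 and 85, and in MAPKi cells total counts gave 117, genes stable at 3 or 5 h 157 and the T arm at 0 h 412. Genes stable at 3 or 5 h also gave 0 for the T interaction at 1 h and 10 for TCHX against T at 1 h in DMSO cells, and TMM gave 34 for the latter in MAPKi cells and 550 for its interaction over 3 and 5 h (from 1067). Total counts gave 4876 and 5498 for T at 5 h (from 7571 and 8443), and 0 h alone gave 6861 for the MAPKi effect (from 10315).

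Of these moved counts, fits with fewer samples gave lower ones, with 2 exceptions. Leaving out a replicate gave as few as 4, 2 and 0 for CHX at 1 h and its interaction, 787 for the CHX interaction over 3 and 5 h (from 1641), 1 and 3 for vehicle at 1 h, 62 and 100 at 3 h (from 170 and 268) and 39 and 116 at 5 h (from 160 and 507), 44, 54 and 0 for T at 1 h and its interaction, 136 for that at 5 h (from 461), 0 and 16 for TCHX against T at 1 h, 387 for its interaction over 3 and 5 h, and 54 and 45 for TCHX against CHX at 1 h (from 127 and 131). The exceptions were without replicate 3, 28 for CHX at 1 h in MAPKi cells and 3 for the T arm at 0 h. Only the groups compared gave 6 and 1 for CHX at 1 h in DMSO cells and its interaction, 6, 8, 83 and 95 for vehicle at 1 and 3 h, 52 at 5 h in DMSO cells, 53, 81 and 0 for T at 1 h and its interaction, 186 for that at 5 h, 0 and 9 for TCHX against T at 1 h, 537 for its interaction over 3 and 5 h and 80 for TCHX against CHX at 1 h in MAPKi cells. Depth limits KLF2, KLF4, KLF11 and KLF13, with 746, 1253, 1919 and 22 counts in all.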

Other observations

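On the log2 scale, and among KLF genes with a fold change given, KLF10 rose most with CHX while transcription ran. KLF6 rose most with CHX under T. As a fraction of the 0 h level KLF6 did not come first at 3 or 5 h. At 3 h KLF11 (0.748) and KLF10 (0.547) were above KLF6 (0.528) in DMSO cells. KLF5 (0.901) and KLF11 (0.536) were above KLF6 (0.430) in MAPKi cells at that time. At 5 h KLF11 (0.601) was above KLF6 (0.407) in DMSO cells. KLF10 (0.580, SD 0.612) and KLF5 (0.523) were above KLF6 (0.4865) in MAPKi cells at 5 h. KLF10 with CHX alone at 5 h was at 1609 to 3283% of its 0 h level in DMSO cells, and with TCHX at 26.9 to 50.3%. KLF6 with CHX alone at 5 h was at 254 to 286%, and with TCHX at 39.6 to 50.9%.

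KLF4 in CHX at 5 h (10.5 to 14.3 CPM) and KLF5 in CHX at 5 h (83.4 to 85.8 CPM) reached their highest group levels in DMSO cells. KLF2, KLF3 and KLF11 reached theirs in MAPKi cells with CHX at 5 h, at 3.95 to 11.6, 134 to 191 and 6.43 to 9.80 CPM, and KLF7 with CHX at 3 h, at 85.5 to 107 CPM. The 2 highest group means of KLF9 were those of MAPKi cells at 0 h in the T arm (266 to 280 CPM) and in the CHX arm (220 to 294 CPM).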
